A study of Homo sapiens with 4 samples.

Results

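The genes described here are 10 tetraspanins of endosomes and the plasma membrane, CD63, CD9, CD81, CD82, CD151, TSPAN3, TSPAN4, TSPAN10, TSPAN14 and TSPAN31. They were taken by gene symbol from a table of 60595 genes, and all 10 were found once. RNA sequencing had been done on A375, an established human melanoma cell line that the labels give as wild type, grown in DMEM with serum. PH libraries came from cells treated with paroxetine hydrochloride, a blocker of serotonin reuptake, and DMSO libraries from cells given the solvent, with 2 libraries in each group. No dose, time of treatment or separate culture is named in the labels, so the p-values measure the spread between these libraries, which may be technical. The stated aim was to find transcripts that depend on the drug.

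Tetraspanins are small proteins that cross the membrane repeatedly and carry a cysteine-rich outer loop. They bind one another and partners such as integrins, immunoglobulin-domain proteins and metalloproteases, and so form clusters known as the tetraspanin web. CD63 is found mainly in late endosomes, lysosomes and, in pigment cells, in early melanosomes, where it takes part in sorting cargo into internal vesicles. CD9 and CD81 lie mainly at the cell surface, and together with CD63 they are the usual markers of exosomes and other extracellular vesicles.

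Sequence upstream of CD63, CD82 and TSPAN14 is shown to give the context of genes that moved in opposite directions. The letters are from RefSeq's promoter table (GRCh38.p14), which held 7 of the 10 members, and of several starts the one nearest the 5′ end of the GENCODE gene was used. Of the 250 bases before that start, those ahead of the first annotated exon of the gene that the window meets are printed 5′ to 3′ on the gene's strand. They are 216 bases for CD63, chr12:55729708-55729923 (minus strand), 178 for CD82, chr11:44565413-44565590 (plus strand, downstream of the gene's annotated start at 44564427), and 106 for TSPAN14, chr10:80454060-80454165 (plus strand). Capitals mark the GC box, GGGCGG, searched on both strands.
CD63: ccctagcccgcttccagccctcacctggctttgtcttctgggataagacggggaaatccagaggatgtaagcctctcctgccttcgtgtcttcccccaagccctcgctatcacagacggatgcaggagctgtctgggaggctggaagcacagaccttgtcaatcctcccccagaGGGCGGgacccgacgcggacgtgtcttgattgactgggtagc
CD82: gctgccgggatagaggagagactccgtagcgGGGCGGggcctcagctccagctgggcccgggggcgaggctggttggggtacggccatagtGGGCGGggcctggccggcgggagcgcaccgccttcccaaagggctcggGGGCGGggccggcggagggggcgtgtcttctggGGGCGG
TSPAN14: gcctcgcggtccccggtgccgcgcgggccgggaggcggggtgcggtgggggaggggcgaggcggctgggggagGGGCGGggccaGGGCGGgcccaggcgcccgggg
The TSPAN14 stretch was the richest in G and C, at 88.7%, and held 2 GC boxes, while that of CD82 was at 77.0% and held 4. CD63 had 60.2% G and C and 1 GC box. In the full 250-base windows the counts were 6 for TSPAN14, 4 for CD82 and 1 for CD63. Of the other members with a window, TSPAN4 had 1 and CD9, TSPAN10 and TSPAN31 had none. The starts used for CD9, TSPAN10 and TSPAN31 lay 231, 5134 and 7026 bases downstream of the genes' annotated starts. The windows of TSPAN10 and TSPAN31 thus lie inside the annotated genes and do not describe their annotated 5′ ends. At least 1 was held by 42.6% of 35116 windows of that length. The E-box core CACGTG was also searched on both strands. It was in none of the windows of the 7 members, against 6.34% of all windows. A match describes letters only.

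Values are FPKM, a unit per transcript length and per library total, so that levels of different genes can be compared. They summed to 606197 and 640029 in the PH libraries and to 655607 and 655004 in the DMSO libraries, and numbers of reads are not among the values used here. Libraries correlated across genes at r = 0.982 within PH and 0.983 within DMSO, and at 0.941 to 0.942 between groups (genes are not independent replicates). Of 11 melanocyte markers 6 passed the filter of 1 FPKM in at least 2 libraries. SOX10, the melanocyte lineage factor, had 275 and 271 FPKM in PH libraries and 193 and 181 FPKM in DMSO libraries. It and CSPG4 were called higher in PH and S100B lower (log2 changes 0.54, 0.30 and -1.06), MITF, PRAME and S100A1 were not called, and the median of the 6 was -0.17. The pigment genes PMEL, MLANA, TYR, TYRP1 and DCT stayed below 1 FPKM in every library. The summed level of 4 leukocyte markers was 0.337 to 0.365 FPKM in PH and 0.296 to 0.545 FPKM in DMSO libraries, and that of 3 endothelial markers 0.0856 to 0.348 and 0.0285 to 0.0388 FPKM. The 3 epithelial markers summed to 0 to 0.0973 FPKM in PH and 0.296 to 0.539 FPKM in DMSO libraries, and the 3 fibroblast markers to 11.1 FPKM in both PH libraries and 6.16 to 8.02 FPKM in DMSO libraries. Of the fibroblast markers, PDGFRB was called higher in PH, LUM was not called and COL1A1 was below the filter. Whether any cells other than A375 had a part in the results was not tested.

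Of the 10 tetraspanins, 5 were called different between the PH and DMSO libraries, in both directions. CD63, CD9 and CD82 were higher in PH, TSPAN14 and CD151 were lower, and the others were not called. Of the 5, only CD63, CD9 and TSPAN14 kept their calls under all 12 alternative settings described at the end. Calls are from limma at a Benjamini-Hochberg adjusted p under 0.05 over all 15511 genes tested. All 10 passed the filter. By the same rule 38.6% of all genes tested were called, 18.1% higher and 20.5% lower, so 3 members higher and 2 lower of 10 lie near the general rate. Their median log2 change was 0.20, against -0.0047 for all genes tested. It is the midpoint between -0.04 for TSPAN4 and 0.44 for TSPAN31, neither of them called. As many members lay above 0 as below, so the median shows no common shift. Changes are differences of log2(FPKM + 1), PH minus DMSO, which understate the change of low genes. In bulk RNA, fewer cells of a kind and less RNA per cell cannot be told apart.

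CD63 was the most abundant tetraspanin in every library. It had 491 and 492 FPKM in the PH libraries, against 316 and 289.6 FPKM in the DMSO libraries. The PH libraries lay close together and above both DMSO libraries. The mean was 492 ± 0.598 FPKM in PH and 303 ± 18.4 FPKM in DMSO cells (SD, n = 2 each), a fold of 1.62 and a log2 change of 0.70 ± 0.06 (SE; limma adjusted p = 0.00118). Of all genes tested, 9.30% had a larger log2 change and 0.954% a higher mean level in PH libraries. The gene (ENSG00000135404) lies on the minus strand of chromosome 12, 55725323 to 55729707 (GENCODE release 29, GRCh38), and 237 of its exon bases overlap the antisense RNA AC009779.2, which had 2.56 to 5.66 FPKM.

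CD9, the surface tetraspanin that eggs need for fusion with sperm, rose by a similar amount. It had 114 and 117 FPKM in PH libraries and 73.0 and 74.0 FPKM in DMSO libraries, with no overlap between groups. The means were 116 ± 1.69 and 73.5 ± 0.738 FPKM (SD, n = 2 each), and the log2 change was 0.64 ± 0.05 (limma adjusted p = 0.000944). The gene (ENSG00000010278) lies on the plus strand of chromosome 12, 6199715 to 6238271.

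CD82, also called KAI1 and known as a suppressor of metastasis, was expressed at a low level. It had 9.82 and 7.62 FPKM in PH libraries and 4.16 and 5.30 FPKM in DMSO libraries. The groups did not overlap, although the libraries within each group spread more widely than for CD63 or CD9. The log2 change was 0.76 ± 0.18 (limma adjusted p = 0.0236). The call was lost without PH replicate 1 (log2 change 0.60, adjusted p = 0.0920) and without DMSO replicate 1 (0.62, adjusted p = 0.0876). CD82 (ENSG00000085117) lies on chromosome 11, 44564427 to 44620363.

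CD81, a part of the B cell co-receptor and a receptor for hepatitis C virus, was not called. It had 71.6 and 79.5 FPKM in PH libraries and 88.1 and 84.5 FPKM in DMSO libraries. Both PH libraries were lower, but the log2 change of -0.19 ± 0.07 did not pass (limma adjusted p = 0.0872; 95% interval -0.37 to -0.01 before adjustment). It was -0.12 without PH replicate 1 and -0.070 with quantile normalization, and was not called under any of the 12 alternatives. The gene (ENSG00000110651) lies on chromosome 11, 2376177 to 2397419.

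CD151 binds tightly to the laminin-binding integrins. It had 116 and 104 FPKM in PH libraries and 129 and 132 FPKM in DMSO libraries, again without overlap. The log2 change of -0.24 ± 0.07 was small and passed narrowly (limma adjusted p = 0.0422). It was lost without PH replicate 2 (-0.16, adjusted p = 0.128), DMSO replicate 1 (-0.26, 0.109) or DMSO replicate 2 (-0.23, 0.147), and under every scaling between libraries that was tried. The gene (ENSG00000177697; chromosome 11, 832843 to 839831) shares 6.53% of its exon bases with POLR2L on the opposite strand, which had 97.1 and 96.1 FPKM in PH and 146 and 136 FPKM in DMSO libraries. Whether counting used strand is not stated in the labels, and the part of POLR2L reads in the value was not tested.

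TSPAN14 and TSPAN10 belong to the TspanC8 subgroup, which escorts the metalloprotease ADAM10 out of the endoplasmic reticulum. TSPAN14 had the largest fall of the 10, with 49.2 and 50.9 FPKM in PH libraries and 84.5 and 83.1 FPKM in DMSO libraries. Libraries of 1 group differed by less than 2 FPKM and the groups lay far apart. The means were 50.1 ± 1.16 and 83.8 ± 0.976 FPKM (SD, n = 2 each), a fold of 0.597 and a log2 change of -0.73 ± 0.05 (limma adjusted p = 0.000837). Of all genes tested, 90.8% had a higher log2 change. The gene (ENSG00000108219) lies on the plus strand of chromosome 10, 80454166 to 80533123. TSPAN10, first described as oculospanin in the pigment cells of the eye, was barely expressed, at 1.92 and 2.59 FPKM in PH libraries and 1.19 and 1.465 FPKM in DMSO libraries. Its log2 change of 0.48 ± 0.21 was not called (limma adjusted p = 0.125; 95% interval -0.04 to 1.00). TSPAN10 (ENSG00000182612) lies on chromosome 17, 81637171 to 81648749.

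The remaining members did not pass. TSPAN3 had 98.8 and 109 FPKM in PH libraries and 114 and 110.0 FPKM in DMSO libraries, a log2 change of -0.11 ± 0.07 (95% interval -0.28 to 0.06). TSPAN4, which marks the vesicles called migrasomes that moving cells leave behind, was the steadiest, with 60.4 and 58.2 FPKM in PH libraries and 60.2 and 61.8 FPKM in DMSO libraries. It alone among the 10 had overlapping groups, and 71.6% of all genes tested had groups that did not overlap, against 9 of the 10 members. Its log2 change was -0.04 ± 0.06 (95% interval -0.18 to 0.10).

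TSPAN31, also known as SAS and amplified with its neighbour CDK4 in some sarcomas, had 39.3 and 32.8 FPKM in PH libraries and 29.6 and 23.2 FPKM in DMSO libraries. Both PH libraries were higher, but the libraries within each group differed by several FPKM and the log2 change of 0.44 ± 0.14 was not called (limma adjusted p = 0.0629). It was called without DMSO replicate 1 (0.61, adjusted p = 0.0347). The gene (ENSG00000135452; chromosome 12, 57738013 to 57750211) shares 25.4% of its exon bases with CDK4 on the opposite strand. CDK4, which drives entry into the cell cycle, had 155 and 149 FPKM in PH libraries and 179 and 187 FPKM in DMSO libraries. CDK4 was thus lower in PH, while TSPAN31 was higher but not called. The part of CDK4 reads in the TSPAN31 value was not tested. TSPAN3 (ENSG00000140391) lies on chromosome 15, 77041404 to 77083984, and TSPAN4 (ENSG00000214063) on chromosome 11, 842808 to 867116. TSPAN4 follows CD151 on the same strand with a gap of 2977 bases. POLR2L, on the opposite strand, reaches into that gap and lies 263 bases from TSPAN4.

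**Figure D1:**
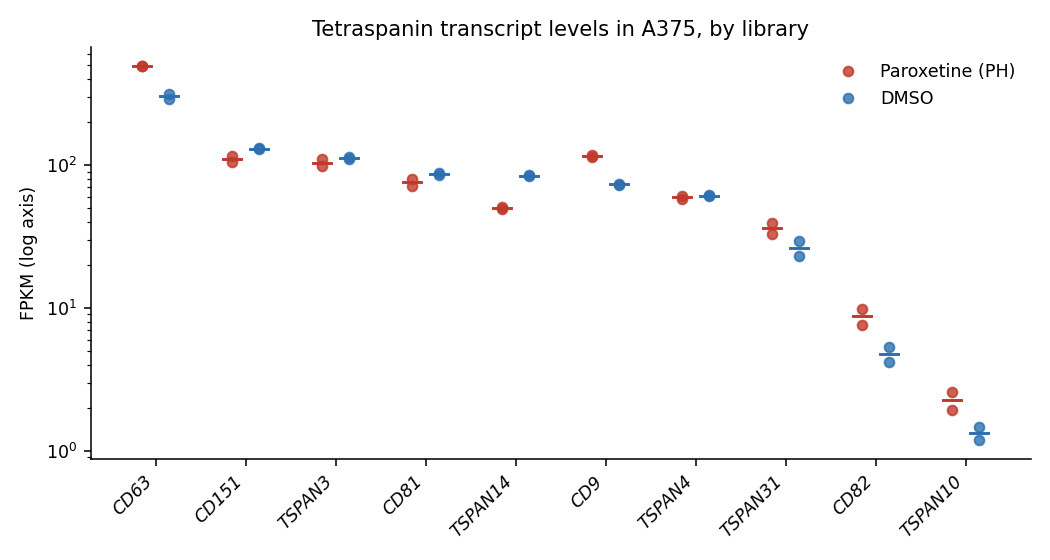
FPKM of each tetraspanin on a log axis, with 1 point per library, PH left of DMSO, and a bar at the mean of 2 libraries. CD63 stands highest at 491 and 492 FPKM in PH and 316 and 289.6 FPKM in DMSO libraries, and TSPAN14 and CD9 show the clearest separation in opposite directions.

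**Figure D2:**
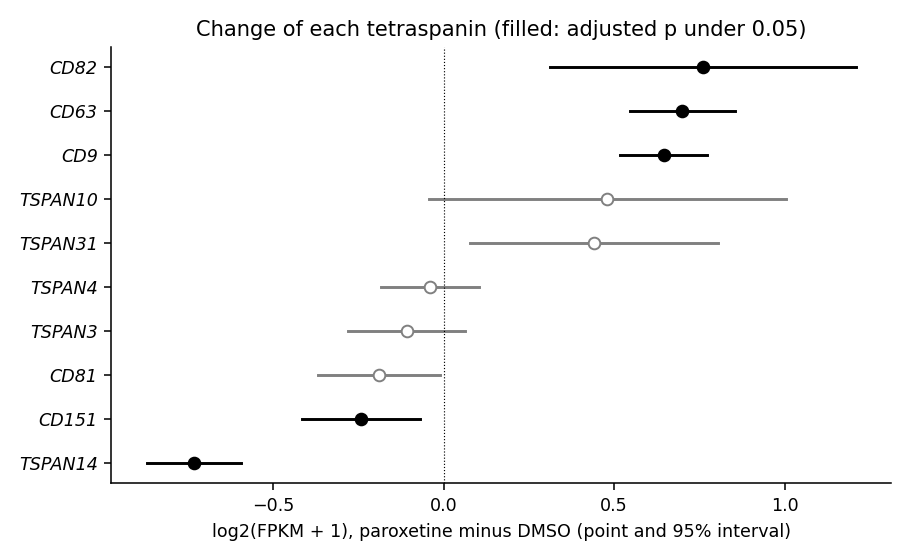
Log2 change of each tetraspanin, PH minus DMSO on log2(FPKM + 1), with its 95% interval from limma before adjustment. Filled points passed an adjusted p under 0.05: CD82, CD63 and CD9 above 0 and CD151 and TSPAN14 below.

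The order of the tetraspanins by level differed between the groups. In PH libraries CD63 was followed by CD9, CD151 and TSPAN3, whose neighbouring ranges overlapped, and then by CD81, TSPAN4, TSPAN14, TSPAN31, CD82 and TSPAN10, each clear of the next. In DMSO libraries the order was CD63, CD151, TSPAN3, CD81, TSPAN14, CD9, TSPAN4, TSPAN31, CD82 and TSPAN10, and only CD81 and TSPAN14 overlapped as neighbours. CD9 was thus at place 2 in PH and place 6 in DMSO libraries, and TSPAN14 at place 7 in PH and place 5 in DMSO libraries. The 10 genes together had 1053 ± 0.735 FPKM in PH and 882 ± 24.4 FPKM in DMSO libraries (SD, n = 2 each). CD63 made up 46.7% of that sum in PH and 34.3% in DMSO libraries. Without CD63 the sums were 562 and 562 FPKM in PH libraries and 584 and 575 FPKM in DMSO libraries, so the other members' rises and falls nearly cancelled in the sum.

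Ratios within a library do not depend on scaling between libraries. CD81, used below as a denominator, was itself lower in both PH libraries (71.6 and 79.5 against 88.1 and 84.5 FPKM). That raises the ratios to it in PH. The ratio of CD63 to CD81 was 6.86 and 6.19 in PH libraries and 3.58 and 3.43 in DMSO libraries. CD9 to CD81 was 1.60 and 1.47 in PH and 0.829 and 0.877 in DMSO libraries, so CD9 passed CD81 in level in PH alone. The ratio of CD63 to CD9 was 4.30 and 4.22 in PH libraries, inside the span of 4.32 and 3.91 in DMSO libraries. TSPAN14 to CD81 was 0.688 and 0.640 in PH and 0.960 and 0.984 in DMSO libraries. With 2 libraries against 2, an exact two-sided permutation test of a single ratio cannot go below p = 0.333, so these are given as values.

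**Figure D3:**
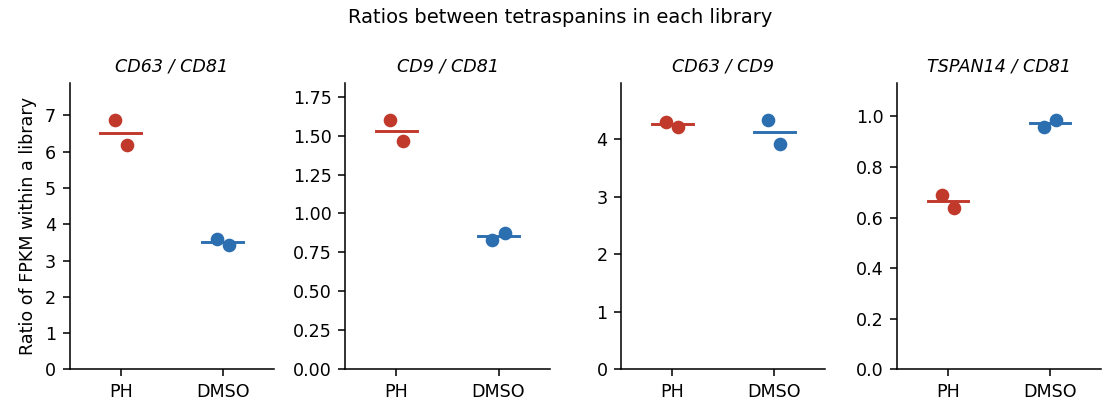
Ratios of FPKM between tetraspanins within each library, with 1 point per library, PH left of DMSO, bars at the mean and axes from 0. CD63 and CD9 stand higher against CD81 in PH (6.86 and 6.19, and 1.60 and 1.47), while CD63 to CD9 overlaps between the groups.

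The other 23 human tetraspanins were mostly low or silent. Of these 11 passed the filter and were tested, and 4 were listed at 0 in every library. Among those tested 1 was called higher and 2 lower, with a median log2 change of -0.0088. Of all genes tested 18.1% were higher and 20.5% lower, so neither count exceeds the general rate. TSPAN13 had the highest level of these, at 63.7 and 66.0 FPKM in PH and 66.9 and 68.7 FPKM in DMSO libraries, and was not called. TSPAN5, another TspanC8 protein, fell to 6.88 and 8.15 FPKM in PH libraries, against 11.2 and 11.0 FPKM in DMSO libraries (log2 change -0.51 ± 0.12, limma adjusted p = 0.0243). TSPAN6 fell to 11.2 and 13.0 FPKM in PH libraries, against 15.6 and 15.8 FPKM in DMSO libraries (-0.35 ± 0.11, limma adjusted p = 0.0490). CD37, a tetraspanin of blood cells, had 6.67 and 4.60 FPKM in PH and 2.26 and 0.774 FPKM in DMSO libraries (1.45 ± 0.34, limma adjusted p = 0.0239), and shares 7.67% of its exon bases with TEAD2 on the opposite strand. TSPAN5 was lost without PH replicate 1 (-0.40), DMSO replicate 1 (-0.50) or DMSO replicate 2 (-0.52), TSPAN6 without the same 3 libraries (-0.25, -0.36 and -0.34), and CD37 without PH replicate 1 (1.22) or DMSO replicate 2 (1.01). With no filter on low values none of the 3 was called. The TspanC8 genes TSPAN15, TSPAN17 and TSPAN33 were below the filter or not called.

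Among 22 genes for partners and modifying enzymes of tetraspanins, 20 were tested, of which 5 rose and 9 fell, against 18.1% higher and 20.5% lower of all genes tested, with a median log2 change of -0.20. Of the 6 integrin subunits listed, ITGA7 rose and ITGA3, ITGA4, ITGA6, ITGB1 and ITGB4 fell. ITGB4, a laminin receptor subunit, had 24.9 and 26.0 FPKM in PH and 70.0 and 66.7 FPKM in DMSO libraries (log2 change -1.39 ± 0.06, limma adjusted p = 0.000294). ITGA6, its partner and a partner of CD151, had 49.5 and 42.2 FPKM in PH and 91.1 and 97.3 FPKM in DMSO libraries (-1.03 ± 0.09). ITGA4, of the fibronectin and VCAM receptor, had 7.95 and 8.96 FPKM in PH and 19.2 and 23.9 FPKM in DMSO libraries (-1.25 ± 0.13). CLDN1, a tight junction gene, fell to a mean of 3.35 FPKM in PH, against 6.85 FPKM in DMSO libraries (-0.85 ± 0.16), a call lost without DMSO replicate 1 (-0.71).

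Further partners were named after their values were seen. ADAM10, the cargo of TSPAN14, fell to 60.4 and 57.4 FPKM in PH libraries, against 85.9 and 75.2 FPKM in DMSO libraries (log2 change -0.44 ± 0.08, limma adjusted p = 0.0113). ITGB1, the shared beta subunit, fell to 104 and 101 FPKM in PH libraries, against 143 and 148 FPKM in DMSO libraries (-0.50 ± 0.05). ITGA3, another subunit that pairs with CD151, fell to 98.4 and 107 FPKM in PH libraries, against 128 and 142 FPKM in DMSO libraries (-0.39 ± 0.08), a call lost without DMSO replicate 2 (-0.31), with quantile normalization (-0.22) and with no mean-variance trend. PTGFRN, an immunoglobulin-domain partner of CD9 and CD81, fell to 16.5 and 17.6 FPKM in PH libraries, against 23.1 and 23.7 FPKM in DMSO libraries (-0.44 ± 0.08), a call lost without DMSO replicate 2 (-0.41). Its relative IGSF8 had 8.26 and 8.79 FPKM in PH and 8.86 and 9.08 FPKM in DMSO libraries and was not called. The groups did not overlap for ADAM10, ITGB1, ITGA3, PTGFRN or IGSF8. The same held for 19 of the 20 partner genes tested and for 71.6% of all genes tested.

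The partner genes that rose included ADAM17, a sheddase related to ADAM10, with 31.5 and 30.7 FPKM in PH and 20.5 and 20.7 FPKM in DMSO libraries (log2 change 0.57 ± 0.07, limma adjusted p = 0.00286). ADAM17 shares 12.3% of its exon bases with IAH1 on the opposite strand, which had 28.6 and 29.1 FPKM in PH and 27.9 and 27.0 FPKM in DMSO libraries. ITGA7, a laminin receptor subunit, rose to 7.40 and 6.97 FPKM in PH libraries, against 3.50 and 3.34 FPKM in DMSO libraries (0.89 ± 0.13). CD46, a complement regulator, rose to 121 and 127 FPKM in PH libraries, against 97.0 and 94.1 FPKM in DMSO libraries (0.37 ± 0.06). CD44 and PI4K2B were named after their values were seen. CD44 rose to 362 and 349 FPKM in PH libraries, against 297 and 292 FPKM in DMSO libraries (0.27 ± 0.05). Its call was lost without DMSO replicate 1 (0.28) or DMSO replicate 2 (0.26) and with no mean-variance trend. PI4K2B fell (-0.59 ± 0.11), a call lost without PH replicate 2 (-0.54) or DMSO replicate 2 (-0.49). PI4K2A, a lipid kinase that associates with CD63 and other tetraspanins, had a log2 change of 0.37 ± 0.08, a call lost without PH replicate 1 (0.32), DMSO replicate 1 (0.39) or DMSO replicate 2 (0.35). The count of partner genes that rose was 3 without DMSO replicate 1 and 3 without DMSO replicate 2.

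CD63 travels in internal vesicles of endosomes. Of 37 genes of ESCRT complexes and exosome formation, 36 were tested, of which 7 rose and 9 fell, with a median log2 change of 0.06. Both counts lie near the shares of all genes tested, 18.1% higher and 20.5% lower. SDCBP, which encodes syntenin, a CD63-binding adaptor, had 170.2 and 171 FPKM in PH and 96.5 and 92.7 FPKM in DMSO libraries (log2 change 0.84 ± 0.05, limma adjusted p = 0.000518). Its syndecan partners fell. SDC1 had 12.4 and 13.2 FPKM in PH and 30.2 and 28.8 FPKM in DMSO libraries (-1.14 ± 0.08), and SDC4 had 88.2 and 87.1 FPKM in PH and 167 and 156 FPKM in DMSO libraries (-0.87 ± 0.06).

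Within the ESCRT complexes, PTPN23, a relative of ALIX, rose to 30.5 and 34.9 FPKM in PH libraries, against 20.4 and 18.9 FPKM in DMSO libraries (log2 change 0.70 ± 0.09). STAM2, of the ubiquitin-binding ESCRT-0 complex, had a log2 change of 0.70 ± 0.15, lost without PH replicate 1 (0.53) or DMSO replicate 2 (0.61), and VPS37B, of ESCRT-I, one of 0.47 ± 0.08. VPS25, of ESCRT-II, fell to 56.8 and 58.9 FPKM in PH libraries, against 95.5 and 106 FPKM in DMSO libraries (-0.79 ± 0.07). CHMP4A, of ESCRT-III, fell by 0.63 on the log2 scale, a call lost without DMSO replicate 1 (-0.57). CHMP4A shares 26.7% of its exon bases with AL136295.1 on the same strand, and VPS37B 8.13% with AC027290.1 on the opposite strand. The count of genes that rose was 4 without PH replicate 1 and without DMSO replicate 1, and the count that fell was 5 without DMSO replicate 1.

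Genes of late endosome and lysosome membranes, the main site of CD63, included several that rose. Of 24 genes 23 were tested, of which 11 rose and 2 fell, with a median log2 change of 0.27. The shares of all genes tested were 18.1% higher and 20.5% lower. This list was chosen with earlier results on lysosomal genes of these libraries known, and its direction is not independent evidence. MFSD12, a cysteine transporter of melanosomes and lysosomes, had 412 and 421 FPKM in PH and 125 and 120.3 FPKM in DMSO libraries (log2 change 1.75 ± 0.05, limma adjusted p = 0.000189), and shares 10.7% of its exon bases with AC005786.3 on the opposite strand. CD68, also called macrosialin, rose to 51.4 and 56.8 FPKM in PH libraries, against 25.2 and 21.7 FPKM in DMSO libraries (1.17 ± 0.10), and shares 81.7% of its exon bases with AC016876.2, listed at 1.56 to 2.73 FPKM on the same strand. RAB9A, of transport from late endosomes to the Golgi, rose to 27.5 and 22.9 FPKM in PH libraries, against 12.9 and 13.8 FPKM in DMSO libraries (0.86 ± 0.11). NPC1, which exports cholesterol, had a log2 change of 1.08 ± 0.07.

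The genes of this list that fell were AP3S1 and LAPTM4B. AP3S1, a subunit of the AP-3 adaptor that brings CD63 to lysosomes, had 137 and 151 FPKM in PH and 286 and 285 FPKM in DMSO libraries (log2 change -0.99 ± 0.06, limma adjusted p = 0.000574). It shares 11.8% of its exon bases with ATG12 on the opposite strand, which was also lower in PH, at 64.8 and 57.5 FPKM against 113 and 98.9 FPKM in DMSO libraries. Of the other AP-3 genes listed, AP3D1 rose by 0.36 ± 0.07, a call lost without PH replicate 2 (0.31) or DMSO replicate 2 (0.32), and AP3B1 and AP3M1 were not called. LAPTM4B, a lysosomal membrane protein gene, fell to 55.7 and 53.7 FPKM in PH libraries, against 95.2 and 89.8 FPKM in DMSO libraries (-0.75 ± 0.06). LAMP2, of the lysosomal membrane, rose to a mean of 51.1 ± 3.32 FPKM in PH, against 31.8 ± 0.283 FPKM in DMSO libraries (SD, n = 2 each), while LAMP1 had 85.0 and 78.1 FPKM in PH and 90.9 and 93.4 FPKM in DMSO libraries and was not called. AP3D1, LAMP1 and LAMP2 were named after their values were seen.

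**Figure D4:**
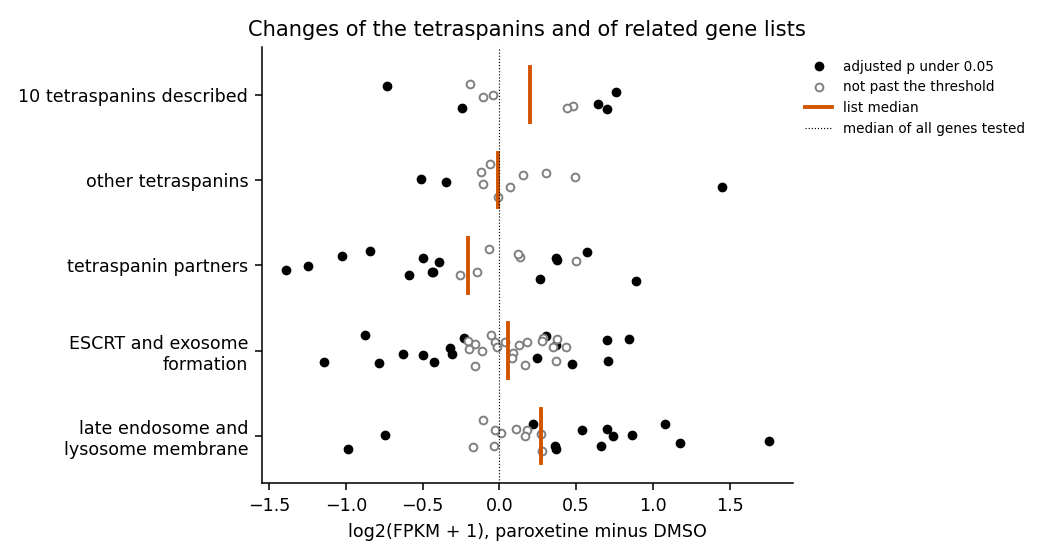
Log2 change, PH minus DMSO, of each tested gene in the tetraspanins described and in the related lists, with filled points at an adjusted p under 0.05, orange bars at each list's median and a dotted line at the median of all genes tested (-0.0047). The late endosome and lysosome list has its median at 0.27 and the partner list at -0.20.

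The tested genes whose profile over the 4 libraries lay nearest to that of CD63 were WBP2, CARD19 and SLC26A6, at a Euclidean distance of 0.02 to 0.03 between centred log2(FPKM + 1) values. WBP2 had 105 and 105 FPKM in PH and 66.3 and 62.0 FPKM in DMSO libraries. With only 4 libraries such nearness describes size of change and little else.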

How the data were processed

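RNA from A375 cells was sequenced in 2 paroxetine and 2 DMSO libraries, grouped by their titles. The authors deposited FPKM values for 60595 genes. Per the submitters' processing notes, the tools were CASAVA 1.4, HISAT2 2.1.0 and Cufflinks 2.2.1 with the build hg38. No label states their options, whether strand was used, or how reads matching several genes were shared out, so overlapping genes are uncertain. Other per-sample columns (12) have names that do not match the titles and were not used.

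The test took the 15511 genes that reached 1 FPKM in 2 or more libraries. PH was compared with DMSO on log2(FPKM + 1) with limma 3.58.1 (R 4.3.3), using a mean-variance trend. Each SE and p-value therefore rests partly on the spread of other genes in these libraries, and not only on the gene's own. The test was two-sided, with Benjamini-Hochberg adjustment over all these genes. The fit was also run on simulated data with independent errors and far fewer changed genes than were called here. Such data do not check the calls made here. At an unadjusted p under 0.05 there were 7609 genes. The members and lists were chosen with earlier results of these data known. Besides the members, the text names up to 4 called genes per list and direction by size of change with groups that do not overlap; others are marked. Nothing in the labels ties libraries by number, so they were not paired. Locations and exon overlaps are from GENCODE release 29. Alternatives changed the pseudocount, filter, scaling, variance model and libraries used.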

Additional observations from a re-analysis of the deposited data

How the results depend on the processing

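CD63, CD9 and TSPAN14 kept direction and call under all 12 alternatives, with limma adjusted p at most 0.0125, 0.0117 and 0.0101; without 1 library each, their log2 changes ran from 0.64 to 0.76, 0.63 to 0.66 and -0.76 to -0.71. CD82 lost its call with no filter (0.76, adjusted p = 0.0728; 0.0156 to 0.0920 over its alternatives), and ran from 0.60 to 0.92 without 1 library each. CD151 lost its call with no filter (-0.24), trimmed-mean scaling (-0.23), quantile normalization (-0.069), rescaling without mitochondrially encoded genes (-0.19), no mean-variance trend (-0.24) and the replicate block (-0.24), with adjusted p of 0.0261 to 0.514, and ran from -0.32 to -0.16 without 1 library each. TSPAN31 was called with a minimum of 5 FPKM (0.44) and with the replicate block (0.44; adjusted p = 0.0144), and ran from 0.27 to 0.61 without 1 library each. TSPAN3 changed sign with quantile normalization (0.059), and TSPAN4 with quantile normalization (0.029) and rescaling without mitochondrial genes (0.0090); neither was called. TSPAN10 was removed by the minimum of 5 FPKM. The cause of these shifts was not tested.

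The count of tetraspanins called lower was therefore 1 with no filter, each of the 3 scalings, no trend and the replicate block. The count called higher was 2 with no filter, and 4 with a minimum of 5 FPKM and with the replicate block. Of the other tetraspanins, 0 were called higher with no filter or a minimum of 5 FPKM; 0 were called lower with no filter, and 1 with trimmed-mean scaling, rescaling, no trend or the block. Without 1 library each, 0 to 1 were higher and 0 to 2 lower. ESCRT genes called higher numbered 4 with no filter and no trend, 4 to 5 without 1 library each, and 5 to 7 were then lower. Partner genes called higher numbered 3 to 5 without 1 library each. Over all genes, 1758 to 1905 were higher and 2064 to 2555 lower without 1 library each. Same-numbered libraries did not deviate together across genes (r = -0.0425). Such a value could show only a deviation shared by many genes, so it cannot decide whether libraries were made in pairs. The replicate block is given as an alternative only.

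With 2 libraries per group and no read numbers, a missing call is no evidence of a constant level.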
